A study of Mus musculus with 16 samples.

Results

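Dcdc2c, Spin1, Omt2a, Omt2b, E330021D16Rik and Rfpl4 were examined in single mouse two-cell embryos. These 6 genes, of 24063 listed, were chosen by their own values in these libraries, because they led the counts of single embryos or lay far above control in mutant embryos. Their levels and their difference between the groups are therefore given as a description, with no test. They were grouped as abundant transcripts of the kind that oocytes store. No oocyte libraries were used here, so that storage in oocytes was not tested, and only a part of the 6 were abundant in every library. Spin1, Omt2a and Omt2b were among the 10 most abundant genes of every library, Dcdc2c was so in 2 of 8 Δm/wt and 8 of 8 f/wt libraries, E330021D16Rik in 1 Δm/wt library and Rfpl4 in none. Dcdc2c also varied with transcripts of the two-cell stage (r = 0.87 over 15 samples, described further on) and against those of oocytes (r = -0.63). Once the group means were removed, r with oocyte transcripts was -0.38 for Dcdc2c. It was also negative for Omt2a (-0.34), Omt2b (-0.33) and Spin1 (-0.13), and positive for E330021D16Rik (0.33) and Rfpl4 (0.59). Δm/wt embryos (8 libraries) came from Kdm1a f/f females that also carried Zp3-cre, a transgene that is active in growing oocytes and deletes part of Kdm1a there. Control f/wt embryos (8 libraries) came from Kdm1a f/f females without the transgene, so that the maternal allele was floxed but intact. All females were 4 to 8 weeks old and superovulated. The background of the females with Zp3-cre was a mix of C57BL/6J and 129, and that of the control females was not stated separately. The fathers were wild-type B6D2F1 males, so that every embryo of both groups received an intact paternal Kdm1a allele. Embryos were collected 40 to 42 hours after hCG, the hormone that triggers ovulation. The labels do not say which embryos shared a mother or a litter.

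A mouse oocyte stops transcription before it is ovulated and is fertilised with a store of maternal mRNA. In the two-cell embryo most of this store is broken down while the embryonic genome is switched on, so that the transcriptome of this stage holds the remainder of the maternal store together with the first embryonic transcripts. KDM1A, also called LSD1, removes methyl groups from histone H3 at lysine 4 and lysine 9.

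Gene counts ranged from 4049168 to 14334244 per Δm/wt library and from 3212510 to 9337451 per f/wt library. Libraries f/wt 2 and f/wt 3 differed by little more than sampling noise (chi-square per gene 1.89, against 45.6 to 367 in the other 55 pairs of libraries of 1 group), and their counts were summed and counted as 1 sample, which left 8 Δm/wt and 7 f/wt samples. Kdm1a, the targeted gene, had 0 to 26 counts in the Δm/wt libraries and 8 to 188 in the f/wt libraries, which overlapped. Values are CPM, the counts divided by the scaled library size and given per 1000000, after TMM scaling, which evens out differences in library composition, and a fold change is the log2 ratio of the groups fitted by edgeR with its standard error. CPM values are shares of a library, so that a gain of 1 transcript and a loss of the others cannot be told apart. Over all 11344 genes tested, 21.9% passed edgeR's quasi-likelihood test at an adjusted p of 0.05 as higher in Δm/wt and 22.8% as lower, with a median log2 fold change of 0.04. Counts of listed genes that passed, given below, are to be read beside these shares.

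The sequences around the starts and ends of these transcripts were read first, because several of them bear on how the counts can be assigned. In mm10 the files place Omt2a at chr9:78311972-78314797 on the minus strand and Omt2b at chr9:78328030-78329620 on the plus strand, 13233 bases apart. The coding parts are 300 bases in transcript Omt2a-203 and 357 bases in Omt2b-201 (GENCODE M21, GRCm38). The last 180 coding bases of each, which precede the stop codon and span 1 intron that is not shown, are given to show where reads cannot be told apart, with the identical end of 117 bases in capitals (chr9:78312251-78313025 for Omt2a, chr9:78328572-78329350 for Omt2b).
Omt2a: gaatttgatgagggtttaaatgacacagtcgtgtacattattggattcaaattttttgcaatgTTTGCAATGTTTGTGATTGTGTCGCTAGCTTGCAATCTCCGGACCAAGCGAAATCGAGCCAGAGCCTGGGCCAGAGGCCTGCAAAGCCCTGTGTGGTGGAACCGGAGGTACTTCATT
Omt2b: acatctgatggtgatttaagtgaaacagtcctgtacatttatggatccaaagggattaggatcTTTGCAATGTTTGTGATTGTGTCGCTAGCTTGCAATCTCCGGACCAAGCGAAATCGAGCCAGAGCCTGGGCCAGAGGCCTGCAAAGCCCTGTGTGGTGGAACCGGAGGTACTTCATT
Before this shared end, 119 of 174 aligned coding positions (68.4%) were identical. A read of 49 bases, the length used here, that lies within the shared end cannot be placed on 1 gene. Of the 1119 possible reads of the Omt2a transcript 334 (29.8%) also occur in Omt2b, and of the 687 possible reads of the Omt2b transcript 356 (51.8%) also occur in Omt2a. Within the last exon, toward which these libraries read, the shared reads were 214 of 258 in Omt2a and 238 of 281 in Omt2b.

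The files place Dcdc2c at chr12:28437795-28548337 on the minus strand and Spin1 at chr13:51100880-51152562 on the plus strand. RefSeq promoter windows (GRCm38.p6, 250 bases before each start) were found for all 6 genes, 9 windows in all. Of the 32 pairs of windows from different genes, the window before the start of the Dcdc2c transcript in the files and the window before an internal start of Spin1, 31917 bases inside that gene, were the most alike, with a local alignment score of 86, against 22 for the next pair. The aligned stretches are printed with identical bases in capitals, at chr12:28548344-28548558 (minus strand) for Dcdc2c and chr13:51132611-51132796 (plus strand) for Spin1.
Dcdc2c: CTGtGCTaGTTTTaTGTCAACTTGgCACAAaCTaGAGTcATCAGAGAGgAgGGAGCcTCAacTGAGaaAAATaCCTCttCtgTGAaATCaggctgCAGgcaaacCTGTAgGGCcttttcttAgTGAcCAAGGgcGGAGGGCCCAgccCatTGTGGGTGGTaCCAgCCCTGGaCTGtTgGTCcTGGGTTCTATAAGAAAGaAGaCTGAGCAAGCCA
Spin1: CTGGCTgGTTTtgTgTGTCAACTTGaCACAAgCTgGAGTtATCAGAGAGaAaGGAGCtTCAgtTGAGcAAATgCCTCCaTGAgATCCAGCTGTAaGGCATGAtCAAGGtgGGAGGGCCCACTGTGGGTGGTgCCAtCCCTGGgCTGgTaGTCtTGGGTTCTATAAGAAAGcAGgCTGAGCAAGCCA
Of 184 positions aligned without a gap, 157 (85.3%) were identical. The longest identical run has 17 bases and lies in 19 of 32851 promoter windows (0.0578%), of 18 genes. The count files do not show which start of Spin1 was used. Among the 3 other tested genes whose window holds this run, Gm17751 rose to 452 ± 278 CPM in Δm/wt, against 124 ± 113 CPM in f/wt (log2 fold change 1.86 ± 0.53, adjusted p = 0.00778 in edgeR), and Gm3143 rose to 78.0 ± 43.5 CPM, against 26.8 ± 5.04 CPM (1.54 ± 0.45, adjusted p = 0.0087). Lifr, which encodes a receptor of leukaemia inhibitory factor, had 4.96 ± 3.48 CPM in Δm/wt and 4.40 ± 2.02 CPM in f/wt (adjusted p = 0.874). These 3 genes were picked by the shared run after the alignment was seen. The stretch was not compared with annotated repeats, and whether it has any part in the levels of these genes was not tested.

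The other members start from windows without such a stretch. The 150 bases before the start are shown for the 4 genes that share no block, with E-boxes (CANNTG, the site of basic helix-loop-helix factors, several of which act in oocytes) and TATA boxes (TATAAA, searched on both strands) in capitals. The windows lie at chr9:78314049-78314198 (Omt2a, minus strand), chr9:78327880-78328029 (Omt2b, plus), chr6:136415570-136415719 (E330021D16Rik, minus) and chr7:5116912-5117061 (Rfpl4, minus).
Omt2a: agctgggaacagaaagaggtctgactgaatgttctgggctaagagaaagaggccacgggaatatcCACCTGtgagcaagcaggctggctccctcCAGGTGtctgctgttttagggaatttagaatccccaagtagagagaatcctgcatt
Omt2b: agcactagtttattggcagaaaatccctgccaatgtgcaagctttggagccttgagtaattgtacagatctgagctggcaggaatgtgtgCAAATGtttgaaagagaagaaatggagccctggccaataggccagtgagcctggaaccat
E330021D16Rik: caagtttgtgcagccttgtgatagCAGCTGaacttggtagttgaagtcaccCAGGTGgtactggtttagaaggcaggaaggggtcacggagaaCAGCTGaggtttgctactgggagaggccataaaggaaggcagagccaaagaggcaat
Rfpl4: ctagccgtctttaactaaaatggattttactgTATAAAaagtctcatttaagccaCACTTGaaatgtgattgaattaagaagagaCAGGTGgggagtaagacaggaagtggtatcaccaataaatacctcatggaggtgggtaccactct
E-boxes were found 2 times before Omt2a, 1 time before Omt2b, 3 times before E330021D16Rik and 2 times before Rfpl4. Of the member windows not shown, that before the internal start of Spin1 held 3. Those before the other starts of Spin1 and before Dcdc2c held 0. Of all windows of this length, 47.7% hold at least 1. The TATA box was found before Rfpl4 among the 9 member windows, and 7.57% of all windows hold one. The RefSeq start of Omt2a lies 749 bases from the 5′ end given in the files, and the starts of the other 3 coincide with it. The start of Spin1 at the 5′ end given in the files is of a different kind, with 82.4% G and C and 42 CpG dinucleotides in its 250 bases. The median over all windows was 52.4% G and C.

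Together the 6 transcripts took a larger part of the library in Δm/wt embryos. Their summed share of all gene counts was lowest at 3.92%, 5.38% at the median and highest at 9.17% in Δm/wt, against 1.84%, 3.49% and 4.90% in f/wt. The ranges overlapped, with Δm/wt 2, 4 and 6 below the highest f/wt sample. In every library 3 or 4 of the 6 were among its 10 most abundant genes. Dcdc2c, Spin1 or Omt2a held the first rank in 15 of the 16 libraries, and in Δm/wt 3 this was Zbed3, a gene of the maternal store, with 5.04% of the counts.

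**Figure D1:**
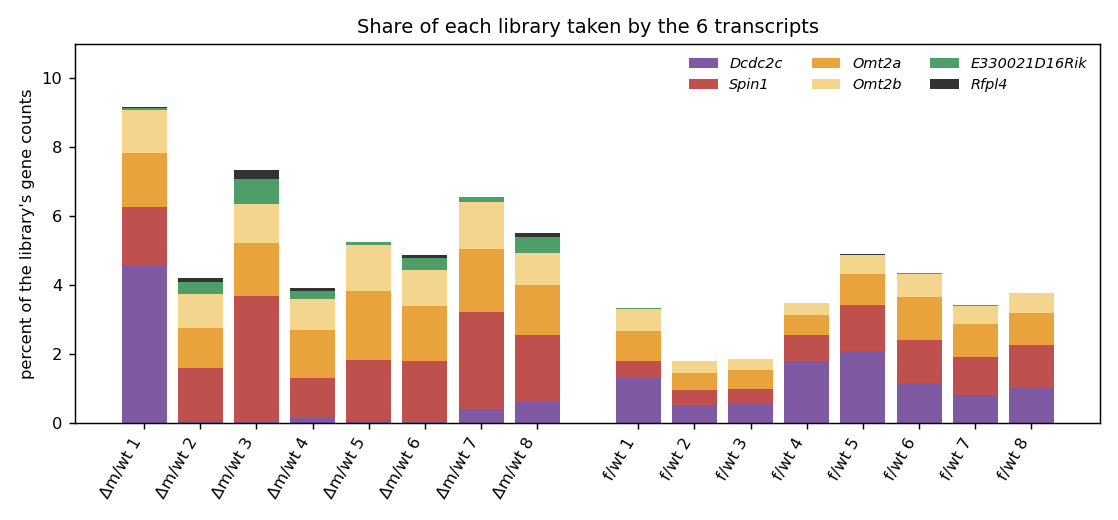
Percent of the gene counts of each library taken by Dcdc2c, Spin1, Omt2a, Omt2b, E330021D16Rik and Rfpl4, stacked, with the 8 Δm/wt libraries to the left of the 8 f/wt libraries. Dcdc2c fills a large part of each f/wt bar and, among the Δm/wt bars, mainly that of Δm/wt 1, which reaches 9.17%.

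Spin1 took the first rank in 4 Δm/wt and 3 f/wt libraries. It encodes spindlin, a protein of the meiotic spindle and a reader of histone H3 trimethylated at lysine 4. The level was lowest at 13727, 18295 at the median and highest at 51046 CPM in Δm/wt, against 3417, 9136 and 13926 CPM in f/wt. Of the 8 Δm/wt samples 7 exceeded all f/wt samples, and Δm/wt 4 was just below f/wt 8. The log2 fold change was 1.44 ± 0.38. Δm/wt 3, with the deepest library, was the highest, and without it the fold change was 1.20.

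The partners of spindlin did not move as one. Of the 3 listed genes described here 2 were tested, of which 1 was higher and 1 lower in Δm/wt. Pde3a, the phosphodiesterase that breaks down cAMP in oocytes and a transcript that spindlin binds, was at 10.1 ± 6.67 CPM in Δm/wt and 0.265 ± 0.384 CPM in f/wt (SD), with a log2 fold change of 5.19 ± 1.24 (adjusted p = 0.00219 in edgeR). The Pde3a ranges overlapped, since Δm/wt 8 had 0.418 CPM and f/wt 1 had 0.992 CPM. Serbp1, whose protein binds spindlin in oocytes, fell to 83.0 ± 43.7 CPM in Δm/wt, against 193 ± 115 CPM in f/wt (-1.22 ± 0.46, adjusted p = 0.035 in edgeR), a call that was lost in 8 of 28 alternative settings. Mos, a kinase of meiotic maturation, was below the filter on low counts, with 3.58 ± 2.92 CPM in Δm/wt and 0.474 ± 0.734 CPM in f/wt. Of the spindlin family, Spin2c, Spin2d and Spin4 were listed and none passed the filter, with at most 4.64, 0.248 and 7.81 CPM in any Δm/wt sample and 0.779, 1.31 and 1.03 CPM in any f/wt sample. Spin1 was thus the 1 spindlin gene of those listed in the files that passed the filter.

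Omt2a and Omt2b, a pair named for their expression during oocyte maturation, were the steadiest of the 6. Omt2a was lowest at 11786, 18213 at the median and highest at 21385 CPM in Δm/wt, against 4157, 7832 and 12154 CPM in f/wt. Omt2b was lowest at 9972, 12678 at the median and highest at 15806 CPM in Δm/wt, against 2469.8, 4951 and 6822 CPM in f/wt. The groups of Omt2b did not overlap, and for Omt2a they did, since Δm/wt 2 was below f/wt 6. The coefficient of variation (SD over mean) was 18.9% for Omt2a and 17.1% for Omt2b within Δm/wt, against 38.3% and 36.1% within f/wt. The log2 fold changes were 1.19 ± 0.29 for Omt2a and 1.42 ± 0.28 for Omt2b.

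The ratio of Omt2a to Omt2b varied little. It was lowest at 1.18, 1.44 at the median and highest at 1.54 in Δm/wt, against 1.32, 1.63 and 1.81 in f/wt, and the ranges overlapped. Over the 15 samples the log2 CPM of the pair correlated with r = 0.98, and with r = 0.94 after the group means were removed. Beside this likeness stand the 334 and 356 read positions that the 2 transcripts share. The authors kept unique best alignments only, which leave out a read that fits both genes equally well. What this did to the counts of the pair was not tested. The neighbours of the pair were low. Gm10639, on the far side of Omt2a, had 3.00 ± 3.84 CPM in Δm/wt and 2.30 ± 3.92 CPM in f/wt (adjusted p = 0.838 in edgeR), and Gsta2, a glutathione transferase gene that begins 1400 bases past Omt2b, had 0.850 ± 0.803 CPM in Δm/wt and 0.581 ± 0.772 CPM in f/wt and was below the filter.

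**Figure D2:**
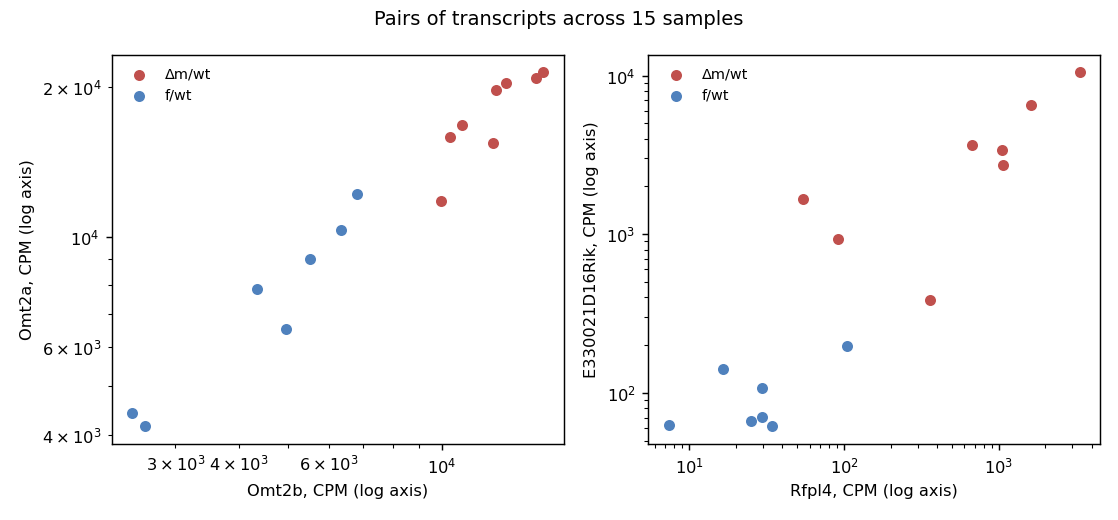
CPM of Omt2a against Omt2b (left panel) and of E330021D16Rik against Rfpl4 (right panel) on log axes, 1 point per sample, 8 Δm/wt and 7 f/wt. Omt2a and Omt2b lie along 1 line (r = 0.98), while E330021D16Rik separates the groups on the vertical axis, Rfpl4 overlaps on the horizontal axis, and both spread widely within Δm/wt.

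E330021D16Rik and Rfpl4 differed most between the groups. E330021D16Rik is a protein-coding gene with 371 codons in its longest transcript, at chr6:136400319-136415569 in the files. It was lowest at 387, 3064 at the median and highest at 10475 CPM in Δm/wt, against 61.5, 70.8 and 197 CPM in f/wt. The groups did not overlap, and the lowest Δm/wt samples were Δm/wt 1 and Δm/wt 5. The log2 fold change was 5.20 ± 0.62. Its rank in the library was between 10 and 393 in Δm/wt and between 1214 and 2995 in f/wt.

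Rfpl4 encodes a RING finger protein of the oocyte that binds members of the ubiquitin and proteasome pathway, and lies at chr7:5109787-5116911. It was lowest at 54.3, 861 at the median and highest at 3349.6 CPM in Δm/wt, against 7.36, 29.3 and 105 CPM in f/wt. The ranges overlapped, since Δm/wt 7 with 54.3 CPM and Δm/wt 5 with 91.3 CPM lay below f/wt 5. The other 6 Δm/wt samples exceeded all f/wt samples. The log2 fold change was 4.87 ± 0.78, and it was 4.32 without Δm/wt 3. In all, 2 of the 6 members, Omt2b and E330021D16Rik, had all Δm/wt samples above all f/wt samples, beside 7.18% of all genes tested. Since the members were chosen on this contrast, this count is no result about them.

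**Figure D3:**
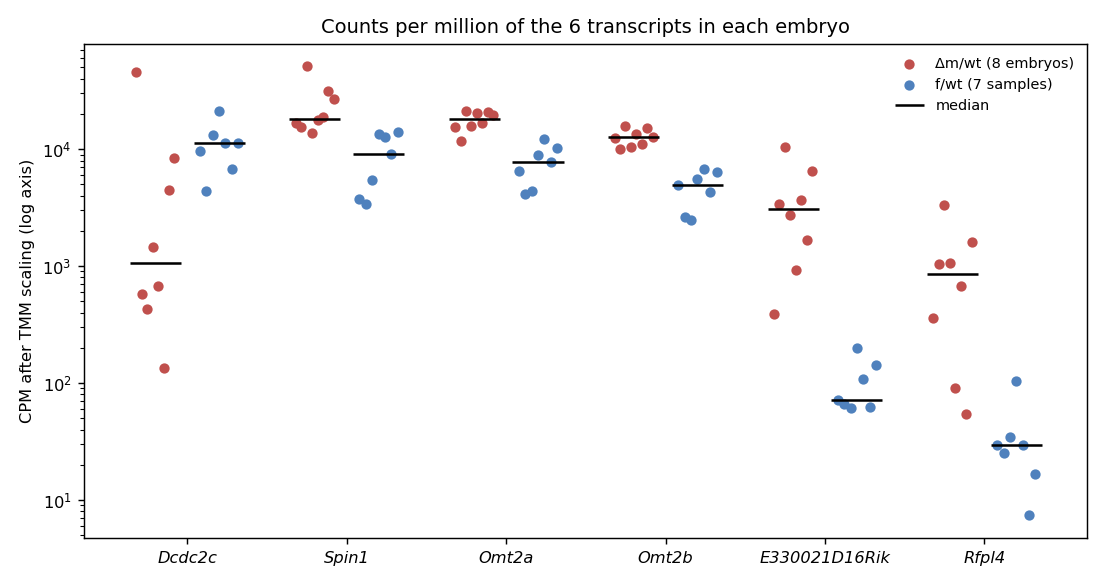
CPM after TMM scaling on a log axis for the 6 transcripts, 1 point per sample, with Δm/wt to the left of f/wt for each gene and a line at the median. Spin1, Omt2a, Omt2b, E330021D16Rik and Rfpl4 have the higher median in Δm/wt, while Dcdc2c has the lower median there (1066 against 11216 CPM) and spans 135 to 45322 CPM.

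Of the proteins that RFPL4 binds, all 4 genes were tested, and 2 were lower and none higher in Δm/wt. The shares over all genes tested were 22.8% lower and 21.9% higher. Psmb1, a subunit of the proteasome core, fell to 11.4 ± 11.6 CPM in Δm/wt, against 245 ± 108 CPM in f/wt, without overlap (-4.42 ± 0.68, adjusted p = 3.92e-05 in edgeR). Ube2a, a ubiquitin-conjugating enzyme, fell to 59.5 ± 31.0 CPM in Δm/wt, against 243 ± 176 CPM in f/wt (-2.03 ± 0.44, adjusted p = 0.00101 in edgeR). Ubb, a gene of ubiquitin itself, had 68.5 ± 28.3 CPM in Δm/wt and 63.7 ± 31.6 CPM in f/wt, and its fold change of 0.10 ± 0.42 changed sign with the scaling. Ccnb1, cyclin B1, had 1115 ± 539 CPM in Δm/wt and 692 ± 163 CPM in f/wt (0.69 ± 0.36, adjusted p = 0.12 in edgeR), and it passed in 2 of 28 alternative settings, as higher without Δm/wt 5 (0.86, adjusted p = 0.0272) and with libraries scaled to Hprt, Gapdh and Ppia (1.35, adjusted p = 0.00994). Rfpl4b, a relative of Rfpl4 by name, went the opposite way, with 0.0976 to 1.86 CPM in Δm/wt and 26.4 to 109.7 CPM in f/wt, without overlap (-7.38 ± 0.77, adjusted p = 7.9e-07 in edgeR).

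Of the genes that flank Rfpl4 and E330021D16Rik, 1 of 4 passed the test, as lower in Δm/wt. Among all genes tested, 22.8% were lower and 21.9% higher. Epn1 and Rasl2-9, on the sides of Rfpl4, had 19.3 ± 15.9 and 14.9 ± 9.12 CPM in Δm/wt, against 36.6 ± 21.6 and 11.8 ± 11.3 CPM in f/wt, and neither passed (adjusted p of 0.283 and 0.717 in edgeR). Gm8994, next to E330021D16Rik, had 68.9 ± 79.3 CPM in Δm/wt and 149.7 ± 118 CPM in f/wt (adjusted p = 0.179 in edgeR). Atf7ip, which encodes a partner of a histone H3 lysine 9 methyltransferase and lies 103282 bases away on the other side, fell to 80.6 ± 17.7 CPM in Δm/wt, against 203 ± 108 CPM in f/wt (-1.33 ± 0.38, adjusted p = 0.00733 in edgeR). Nxnl2 and 9430083A17Rik beside Spin1 and Allc beside Dcdc2c stayed below the filter. Sox11, the nearest listed gene on the other side of Dcdc2c at 1095077 bases, had 2 counts in all Δm/wt libraries together (0.0571 ± 0.106 CPM) and 9.14 ± 8.49 CPM in f/wt (-7.29 ± 1.60, adjusted p = 0.00108 in edgeR).

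Dcdc2c did not share the pattern of the other members. It encodes a protein with doublecortin domains, which bind microtubules. Its level was lowest at 135, 1066 at the median and highest at 45322 CPM in Δm/wt, against 4361, 11216 and 21032 CPM in f/wt. In Δm/wt it ranked 1 in Δm/wt 1, 10 in Δm/wt 8 and 16 in Δm/wt 7, and between 104 and 1504 in the other 5, all of which were below the whole f/wt range. In f/wt it ranked 1 to 3 in every library. The log2 fold change of -0.53 ± 0.85 rested on Δm/wt 1, which held 4.57% of its counts in this 1 gene, and it was -2.25 without that embryo and 0.42 when libraries were scaled to Hprt, Gapdh and Ppia. The remaining 7 Δm/wt samples averaged 2320.4 ± 3090.0 CPM, against 11087 ± 5313 CPM in f/wt. The values of Dcdc2c thus went against the name of an oocyte-type transcript that is higher in Δm/wt, since 1 of 8 Δm/wt samples exceeded the f/wt samples and the other 7 lay below the f/wt median.

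Dcdc2c varied together with transcripts of the two-cell stage. The mean log2 CPM of 8 tested markers of that stage (Zscan4c, Zscan4d, Zscan4f, Tcstv1, Tcstv3, Zfp352, Usp17la and Usp17le, several of them near-identical copies) ranged from 1.58 to 6.94 in Δm/wt and from 4.39 to 7.23 in f/wt. It correlated with Dcdc2c with r = 0.87 over the 15 samples and r = 0.83 after the group means were removed. Δm/wt 1, where Dcdc2c was highest, had the highest marker mean of its group (6.94), and Δm/wt 6, where Dcdc2c was lowest, had the lowest (1.58). For single markers r lay between 0.47 for Usp17la and 0.84 for Usp17le. Of these 8 markers, Tcstv1, Tcstv3 and Usp17le were lower in Δm/wt and none higher (adjusted p of 0.00875, 5.33e-05 and 0.0485 in edgeR). For the other 5 members, r with the marker mean lay between -0.29 and 0.27 once the group means were removed. All these correlations describe 15 samples that share group, depth and scaling.

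The likeness of Dcdc2c to Gm7102 was closer still. Gm7102, at chr19:61174686-61176309 in the files, was the gene of at least 50 CPM most like it (r = 0.998 over 15 samples, 0.997 without the group means). Gm7102 was lowest at 89.2, 590.2 at the median and highest at 25554 CPM in Δm/wt, against 2433, 6694 and 14708 CPM in f/wt. The ratio of Dcdc2c to Gm7102 stayed between 1.39 and 1.84 in Δm/wt and between 1.42 and 1.79 in f/wt, while Dcdc2c itself varied 337-fold in Δm/wt. In the annotated transcripts, 332 of the 1386 possible reads of Dcdc2c (24.0%) also occur in transcripts of 104 other genes, and all 332 lie within its last exon, where they make up 332 of 629. Gm7102 shares 107 of them. Reads that fit 2 genes equally well are left out when only unique best alignments are kept, as the authors did. The part of shared or similar sequence in the likeness was not tested. Adamts2, which encodes a protease that trims procollagen, shares none and had r = 0.996 with Dcdc2c, with a ratio of Dcdc2c to Adamts2 between 39.4 and 56.1 in Δm/wt and between 35.5 and 54.7 in f/wt. The other genes with shared positions differed in this. Of the 104 genes 32 were tested, and r with Dcdc2c over the 15 samples was above 0.9 for 8 of them, Gm7102 included, and under 0.5 for 16. The same shares over all genes were not worked out, so that these counts are no result about shared positions. 2310039L15Rik, which shares 9 positions, had r = 0.99 and a ratio of Dcdc2c to it between 1.82 and 3.26 in Δm/wt and between 1.45 and 3.15 in f/wt. D10Wsu102e, which shares the most (166), had r = -0.65 and averaged 1083.6 ± 642 CPM in Δm/wt and 189 ± 33.2 CPM in f/wt.

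**Figure D4:**
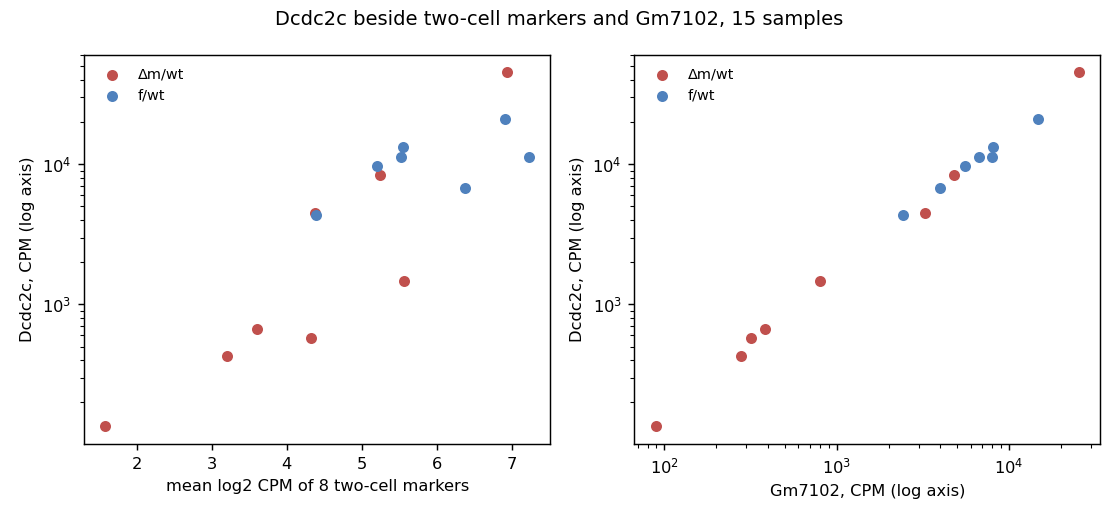
CPM of Dcdc2c on a log axis against the mean log2 CPM of 8 two-cell markers (left panel) and against the CPM of Gm7102 on a log axis (right panel), 1 point per sample, 8 Δm/wt and 7 f/wt. Samples of both groups follow the same course, from Δm/wt 6 (135 CPM) to Δm/wt 1 (45322 CPM), and scatter least in the right panel (r = 0.998).

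Other doublecortin genes took few counts. Of 9 listed genes 8 were in the files and 3 were tested, of which 2 were higher and none lower in Δm/wt. Dcdc2a rose to 139.9 ± 97.1 CPM in Δm/wt, against 17.2 ± 10.3 CPM in f/wt (3.02 ± 0.61, adjusted p = 0.000552 in edgeR). Dclk2, a kinase with doublecortin domains, rose to 382 ± 263 CPM in Δm/wt, against 82.4 ± 75.3 CPM in f/wt (2.21 ± 0.66, adjusted p = 0.0106 in edgeR). Dclk3 had 28.1 ± 14.5 CPM in Δm/wt and 13.0 ± 9.15 CPM in f/wt (adjusted p = 0.166 in edgeR), and Dclk1 and Rp1l1 had no count in any library.

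Per length of transcript the order of the members differed from that by CPM. In Δm/wt the median level per kilobase of exon was 17249 CPM for Omt2b, 13653 for Omt2a, 4126 for Spin1, 1672 for E330021D16Rik, 743 for Dcdc2c and 502 for Rfpl4. In f/wt it was 7822 for Dcdc2c, 6736 for Omt2b, 5871 for Omt2a, 2060.5 for Spin1, 38.7 for E330021D16Rik and 17.1 for Rfpl4. Neighbours in this order overlapped in their ranges over samples in each group, except E330021D16Rik, which lay apart from Spin1 in f/wt (33.6 to 107.7 against 771 to 3141). Dcdc2c, of 1434 bases, and Spin1, of 4434 bases, show the effect of length, since their median CPM in f/wt, 11216 and 9136, differed by less than their levels per kilobase. The cDNA reaches about 3 kb from the 3′ end, so that the full length lowers the level of Spin1. With length capped at 3 kb its median was 6098.5 in Δm/wt and 3045.5 in f/wt, and the order of the members was unchanged. When only read positions held by no other annotated gene were counted as length, Omt2b stood before Dcdc2c in f/wt.

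Within the groups the members varied together to different degrees. Spin1 correlated with Omt2a with r = 0.81 and with Omt2b with r = 0.74 after the group means were removed. E330021D16Rik and Rfpl4 correlated with r = 0.68, E330021D16Rik with Spin1 with r = 0.53, with Omt2a with r = 0.30 and with Omt2b with r = 0.25, and Rfpl4 with Spin1, Omt2a and Omt2b with r between -0.10 and 0.13. The mean log2 CPM of the other oocyte transcripts correlated with Rfpl4 with r = 0.59 and with E330021D16Rik with r = 0.33 on this scale, and with Spin1, Omt2a, Omt2b and Dcdc2c with r between -0.38 and -0.13.

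The genes most like each member, among genes that averaged 50 CPM or more, were in part other transcripts known from oocytes. They were picked by r over the samples of both groups, so that a difference between the groups follows from the choice and is given with no test, and r without the group means stands beside each. Spin1 was most like Nlrp4f, an NLRP gene expressed in oocytes (r = 0.93, 0.84 without the group means), which had 1467 ± 1125 CPM in Δm/wt and 236 ± 264 CPM in f/wt, and like Sorbs2, an adaptor of the actin cytoskeleton (0.93 and 0.84). Omt2a was most like Pid1 (0.95 and 0.87) and Fam149b (0.95 and 0.84). Omt2b was most like Pls1, which encodes an actin-bundling plastin (0.94 and 0.74), and E330034G19Rik (0.94 and 0.69), which had 9523 ± 5415 CPM in Δm/wt and 623 ± 483 CPM in f/wt. E330021D16Rik was most like Asf1a, a chaperone of histones H3 and H4 (0.97 and 0.84), with 209.8 to 1293 CPM in Δm/wt and 27.6 to 83.4 CPM in f/wt, and like C87499 (0.96 and 0.79). Rfpl4 was most like Flcn, which encodes the tumour suppressor folliculin (0.92 and 0.80), and Cyb5b, a cytochrome of the mitochondrial outer membrane (0.92 and 0.78). For all 10 of these genes r was lower once the group means were removed.

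Oocyte transcripts as a list were mostly higher in Δm/wt. Of 36 listed genes 32 passed the filter, of which 25 were higher and 1, Rfpl4b, lower, with a median log2 fold change of 2.56, beside 0.04 over all genes. The list was drawn up with results of these embryos known. Zar1, which acts in the storage of maternal mRNA, had 323 to 1973 CPM in Δm/wt and 7.92 to 40.4 CPM in f/wt (5.15 ± 0.52, adjusted p = 5.94e-07 in edgeR). H1foo, the linker histone of oocytes, and Kpna7, an importin of oocytes and early embryos, had fold changes of 4.95 ± 0.65 and 4.94 ± 0.80 (adjusted p of 9.37e-06 and 7.1e-05 in edgeR). Ccnb1 and Nlrp5 had the highest mean CPM among those that did not pass, Nlrp5, a subunit of the subcortical maternal complex, with 612 ± 641 CPM in Δm/wt and 239.9 ± 137 CPM in f/wt (adjusted p = 0.0642 in edgeR). Oog1 had no count in any library, and Mos, Figla and Sohlh1 were below the filter.

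**Figure D5:**
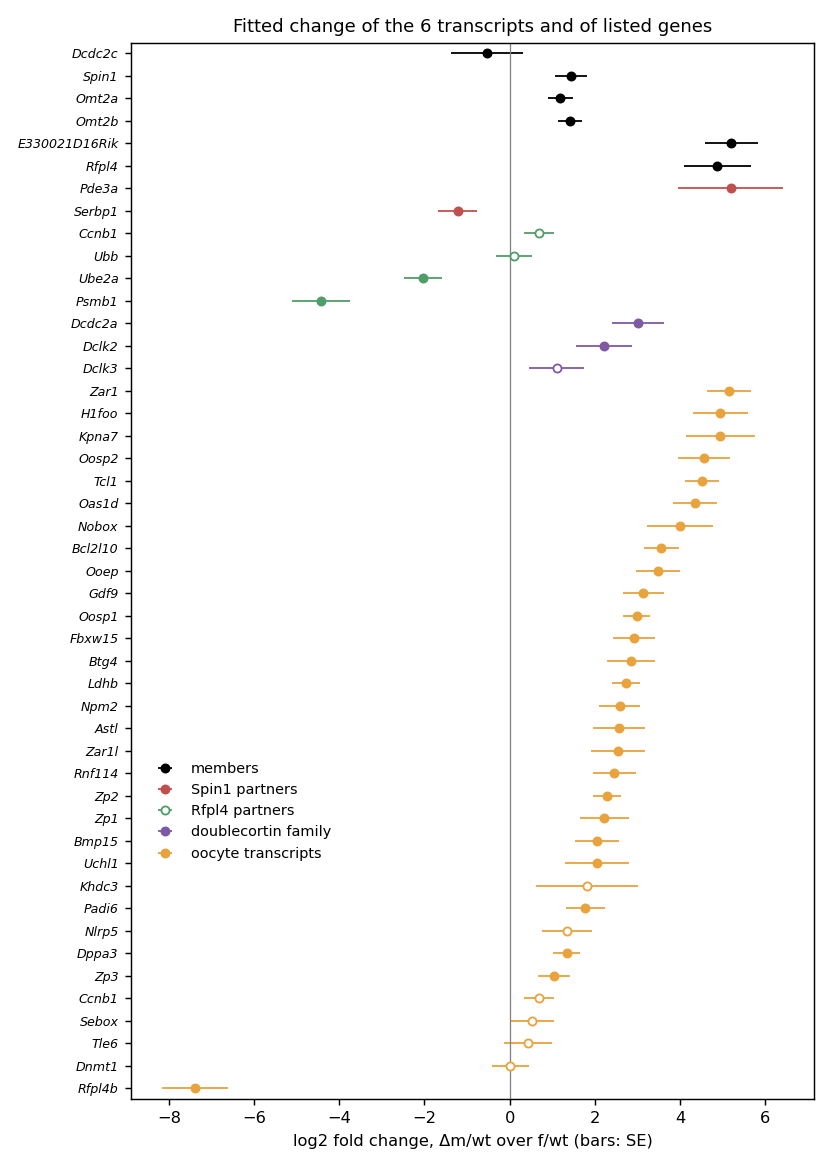
Log2 fold change of Δm/wt over f/wt fitted by edgeR, with bars of 1 standard error, for the 6 transcripts (black, not tested) and for the tested genes of 4 lists. Filled points passed an adjusted p of 0.05 and open points did not, and the 25 filled points to the right among the oocyte transcripts stand beside Rfpl4b at -7.38.

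Transcripts of other cell types were checked beside these values. All 10 markers of the oocyte and early embryo, 9 of them higher in Δm/wt and none lower, are also in the list of oocyte transcripts and add no separate count. Of 8 blood and myeloid markers 5 were tested and 4 were higher in Δm/wt, beside 21.9% of all genes tested. Ptprc and Csf1r passed the filter through their counts in Δm/wt (335 and 1116), with 0 and 3 counts in f/wt. Cd68 did not overlap between the groups, while Ptprc, Csf1r and Lyz2 did. The sum of the 8 markers was between 11.6 and 1926 CPM in Δm/wt, highest in Δm/wt 5, against 0.992 to 24.6 CPM in f/wt. Both globin genes of that list were at 0. In Δm/wt 5, E330021D16Rik (927 CPM) and Rfpl4 (91.3 CPM) were each the second lowest of their group, and Omt2a was at 20338 CPM. Δm/wt 4 and Δm/wt 6 had the next highest blood and myeloid sums (585 and 331 CPM). There E330021D16Rik was at 2736 and 3653 CPM and Rfpl4 at 1070 and 672 CPM. E330021D16Rik was lowest in Δm/wt 1 (387 CPM, sum 18.6 CPM) and Rfpl4 in Δm/wt 7 (54.3 CPM, sum 110 CPM). Of 11 cumulus and granulosa markers 3 were tested, with 1, Cyp19a1, higher and 1, Amhr2, lower in Δm/wt. Cyp19a1 had 25.9 to 143 CPM in Δm/wt and 0 to 0.315 CPM in f/wt. Amhr2 had 0 to 2.39 CPM in Δm/wt and 2.81 to 182 CPM in f/wt. The sum of the 11 markers, which hides these opposite differences, overlapped. It was between 32.2 and 149.6 CPM in Δm/wt and between 9.19 and 182 CPM in f/wt, with Fshr, Foxl2, Amh and Ptx3 at 0. Of 6 sperm markers 5 were at 0, and the sixth, Prm2, reached 9.82 CPM in Δm/wt 8. The part of these transcripts in the levels of the 6 members was not tested.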

How the data were processed

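RNA of single two-cell embryos was converted to cDNA with an oligo-dT method that reads up to about 3 kb from the 3′ end, and sequenced as single reads of 49 bases. The authors aligned reads to mm10 with TopHat2 (2.0.6), kept unique best alignments with fewer than 2 mismatches and deposited raw read counts per RefSeq gene from HTSeq (0.6.1). The strand setting and annotation release were not given in the sources used here. The reads carried no molecular identifiers. A blank row per file (1, with no gene) was left out, and repeat counts were not used.

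The test across genes was edgeR's (4.0.16, in R 4.3.3) quasi-likelihood test after TMM scaling, over the 60% of genes with the highest summed counts, and p-values were adjusted by Benjamini-Hochberg at 0.05. They set the difference between the groups against the spread between these samples only. The deletion was made in the mothers, whose number was not given for these embryos. Embryos of a shared litter may thus count as separate samples, which the p-values do not take into account. Log2 CPM used a prior count of 2. DESeq2 (1.42.0) and limma-voom (limma 3.58.1), other scalings, filters and samples were alternatives. The fit was tested on simulated data. The members, lists, tests and named genes were chosen with earlier results of these data known. Named were the members, the 2 genes of at least 50 CPM most like each, nearest neighbours, the partner and spindlin genes (the result of 1 gene is not reported here), and, per longer list, up to 3 passing genes per direction of at least 10 CPM and 2 that did not pass. D10Wsu102e, 2310039L15Rik, the count of genes alike among those that share positions with Dcdc2c, Gm17751, Gm3143, Lifr, E-box and TATA counts were added after the data were seen. Lengths and read positions came from GENCODE M21 (GRCm38) and promoter windows from RefSeq (GRCm38.p6). A position was called shared if its 49 bases occur on either strand of an annotated transcript of another gene. Only annotated transcripts were searched.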

Additional observations from a re-analysis of the deposited data

Results flagged for a closer look

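In 3 of 16 groups of values examined, 1 sample lay far from the rest of its group, by the gap to the next value over the range. The limit used marks about 1 in 20 groups when values are normally distributed. The 3 flagged groups hold CPM values that were not log-transformed, so that this rate need not hold for them. Dcdc2c stood at 45322 CPM in Δm/wt 1, against 8451 CPM in the next Δm/wt sample. Rfpl4 stood at 3349.6 CPM in Δm/wt 3, against 1611 CPM in the next Δm/wt sample, and the gap was just past the limit (0.528 of the range, limit 0.526). Rfpl4 also stood at 105 CPM in f/wt 5, against 34.2 CPM in the next f/wt sample.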

How the results depend on the processing

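The alternatives gave 28 settings for each fitted value. Spin1, Omt2a, Omt2b, E330021D16Rik and Rfpl4 had a positive fold change in each of them, with ranges of 0.99 to 2.18, 0.87 to 2.00, 1.10 to 2.19, 4.53 to 5.85 and 4.15 to 5.44. Dcdc2c reversed to 0.42 when scaled to Ppia, Gapdh and Hprt, used as reference genes for qPCR in the study, which moved the median of all genes to 0.75, and it was -2.63 with limma-voom and -3.26 without Δm/wt 1 and 8 together (chosen after seeing the data). These reference genes themselves differed in opposite directions (Gapdh 1.27, Ppia -1.71 and Hprt -1.01, adjusted p of 0.0257, 0.000401 and 0.0954 in edgeR). With them Omt2a was at 2.00 and Omt2b at 2.19, and the genes lower in Δm/wt numbered 1594. In embryos 4 to 8 alone 1465 genes were higher and 1675 lower. Ubb reversed to -0.20 with library totals, -0.048 without the filter and -0.017 in embryos 4 to 8, and lay between -0.044 and 0.25 when samples were left out. The causes were not tested.

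When each sample was left out in turn, Dcdc2c lay between -2.25 (without Δm/wt 1) and -0.30, Spin1 between 1.20 and 1.57, Omt2a between 1.07 and 1.33, Omt2b between 1.31 and 1.53, E330021D16Rik between 4.78 and 5.44 and Rfpl4 between 4.32 and 5.44. Higher calls numbered 2153 to 2512 and lower calls 2309 to 2712 over all genes. The mean summed share of the members was 5.37% to 6.12% in Δm/wt and 3.36% to 3.87% in f/wt, beside 5.85% and 3.58% with all samples, and rose to 7.66% in Δm/wt when the 100 most abundant other genes were taken out of the total. With lengths of positions held by no other gene, 4 of 6 members kept their place in f/wt. Positions unique in the whole genome were not run, because no genome sequence was used here.

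Embryo numbers are shared by the groups, but same-numbered samples did not deviate together (correlations of -0.07 to 0.14). With the replicate block 2195 genes were higher and 2378 lower, and Dcdc2c was at -2.37. Low counts limit Pde3a, Rfpl4b and Mos.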
